A study of Homo sapiens with 3 samples.

Results

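A set of 10 nuclear genes of mitochondrial protein synthesis was examined for ZBTB11 occupancy. They comprised the initiation factors MTIF2 and MTIF3, the elongation factors TUFM, TSFM and GFM1, the ribosome recycling factor GFM2, the release factors MTRF1 and MTRF1L, the release factor methyltransferase HEMK1, and TACO1, an activator of the translation of the mitochondrial COX1 mRNA. These 10 genes were taken by name from 20033 protein-coding genes on chromosomes 1 to 22, X and Y, and TACO1 and HEMK1 were included because the study had tested their promoters by ChIP-qPCR. Occupancy was measured by ChIP-seq, in which DNA bound by a protein is precipitated with an antibody and sequenced, in NCI-H1299, an established human line labelled as lung adenocarcinoma. The labels give the genotype as WT with no treatment, and the study describes the line as p53-null. The series held 3 samples, each a single library, made with an antibody to ZBTB11 (a transcription factor with a BTB domain and zinc fingers), with normal IgG, or from Input chromatin without antibody. The Input library was not analysed here. As each group had 1 library, no value below has a replicate check, and intervals cover counting error only.

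Mitochondria carry a small genome of their own and translate its mRNAs, all of which encode subunits of the respiratory chain or the ATP synthase, on a dedicated ribosome. The protein factors that start, extend, end and restart this synthesis are encoded in the nucleus and imported, so that their promoters lie within reach of nuclear transcription factors. The factors resemble those of bacteria rather than those of the cytosol.

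A peak was assigned to each gene with an annotated transcript start no more than 3 kb away, and the peak with the smallest p-value was taken as the strongest of that gene. All 10 genes had such a peak, and in all 10 its q-value (the p-value adjusted within the list) did not exceed 0.05. Among all protein-coding genes, 87.7% had a peak within 3 kb of a start and 55.3% had one that met this limit. The strongest peak of 7 of the 10 genes stood among the 1000 strongest of 346891 ZBTB11 peaks, against 6.01% of protein-coding genes. TACO1 and HEMK1 had been picked by the study from its identified loci, and are no independent evidence for these counts. Among the remaining 8 genes, 8 met the limit and 5 were among the 1000 strongest. The median height over the 10 genes was 273.5 fragments at the summit, and 234 over the 8 genes other than TACO1 and HEMK1. It was 9 over all protein-coding genes, with genes without a peak set to 0.

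The sequences at the summits are shown first, because the study gave CC/AGGAAG as the consensus of its ZBTB11 peaks. That consensus was derived from strong peaks of this same library, so its presence at strong peaks is partly built in and is given as a description. CCGGAAG or CAGGAAG was searched on both strands within 50 bp of each summit (a window of 101 bases). It was present for 6 of the 10 genes, namely MTIF2, TUFM, GFM2, MTRF1, MTRF1L and HEMK1. The count depended on the window, and was 2 of 10 within 25 bp (MTRF1L and MTIF2), 8 of 10 within 100 bp and 8 of 10 over whole peaks. Each line below gives 30 bases of hg38 on the strand of the gene, 5′ to 3′, with the matches in capitals. CTTCCGG is CCGGAAG read from the other strand, and MTIF2 has 2 lines because its matches lie too far apart for 1 line.
MTIF2, chr2:55269262-55269291: tttccagcgggaCCGGAAGcccggcgggga
MTIF2, chr2:55269211-55269240: ctaccgaccattCTTCCGGgtccagaaggt
TUFM, chr16:28846339-28846368: ctctaacttccgCCGGAAGtgccttccagc
GFM2, chr5:74767113-74767142: gccggtacaccgCCGGAAGtgtggaggtgt
MTRF1, chr13:41263578-41263607: taacCCGGAAGaagtgaacCAGGAAGtgaa
MTRF1L, chr6:153002825-153002854: ggCAGGAAGttcccgccaaggCTTCCGGaa
HEMK1, chr3:50569456-50569485: aggcgccgaccCCGGAAGcggggcgtccga

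The summits of the other 4 genes had no match within 50 bp. The 30 bases centred on each of these summits are given for comparison.
TACO1, chr17:63600844-63600873: tttttggagcgaacccggtaaaggaagtgt
GFM1, chr3:158644570-158644599: ggtgcgttaccggcagctgaacccacccgg
MTIF3, chr13:27450349-27450378: gagaggctccgcaggtcctgctgcggagtc
TSFM, chr12:57782703-57782732: ttggtgcgttccgctggagaattctggccc

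Occupancy at the initiation factors was uneven. MTIF2 brings the initiator tRNA to the mitochondrial ribosome, and MTIF3 acts with the small subunit before the mRNA is read. MTIF2 (ENSG00000085760, minus strand) had the strongest peak of the 10 genes by p-value, at chr2:55268822-55269649, which ranked 21 in the whole list. Only 0.130% of protein-coding genes had a stronger one. Its summit held 464 fragments (Poisson 95% interval 423 to 508) over a local background of 20.1, a fold enrichment of 22.01. The summit lay 19 bp upstream of the nearest of its starts. MTIF3 (ENSG00000122033, minus strand) had its peak at chr13:27449967-27450898, ranked 2872. It held 42 fragments (30.3 to 56.8) over 2.94, a fold enrichment of 10.91. The MTIF3 summit lay in the first part of the gene rather than at its main start, in an intron of the canonical transcript, 201 bp downstream of the canonical start and 164 bp upstream of the nearest other start. The same peak covered a start of the lncRNA ENSG00000289827, transcribed in the opposite direction. MTIF2 thus had 11.0 times as many summit fragments as MTIF3 (exact interval 8.05 to 15.5).

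**Figure D1:**
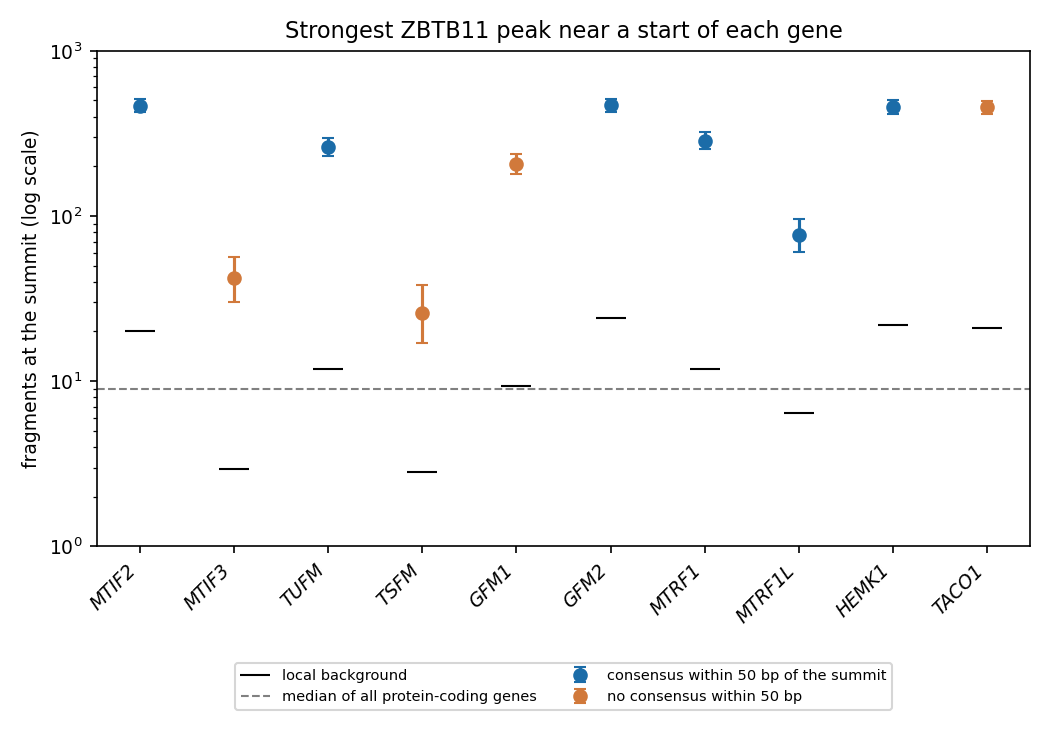
Fragments at the summit of the strongest ZBTB11 peak within 3 kb of a start, on a log axis, for each gene in the single ZBTB11 library. Points, blue with and orange without the consensus within 50 bp of the summit, carry Poisson 95% intervals, black dashes are the local background, and the dashed line is the median of 9 over all protein-coding genes. The values run from 26 for TSFM to 469 for GFM2, and all 10 lie above that median.

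A like gap was seen between the elongation factor TUFM and its partner. TUFM delivers aminoacyl-tRNA to the ribosome, and TSFM recharges it with GTP. The peak of TUFM (ENSG00000178952, minus strand) at chr16:28845894-28846695 ranked 496 and held 261 fragments (230 to 295) over 11.8, with a fold enrichment of 20.44. The annotation placed its summit in the 5' UTR, 24 bp into the canonical transcript. That of TSFM (ENSG00000123297, plus strand) at chr12:57782500-57783038 was the weakest of the set, with rank 4970, 26 fragments (17.0 to 38.1) over 2.81 and a fold enrichment of 7.08. Even so, 23.7% of protein-coding genes had a stronger peak than TSFM, so that it too stood in the upper part of all genes. The ratio of TUFM to TSFM was 10.0 (6.70 to 15.7).

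GFM1 moves the ribosome along the mRNA, whereas its relative GFM2 works with the recycling factor MRRF to split the ribosome after termination. GFM1 (ENSG00000168827, plus strand) had a peak at chr3:158644280-158645008, ranked 622, with 207 fragments (180 to 237) over 9.42 and a fold enrichment of 19.97. Its summit fell 57 bp into the canonical transcript, again in the 5' UTR. GFM2 (ENSG00000164347, minus strand) had the highest summit of the set, with 469 fragments (428 to 513) over 24.1, a fold enrichment of 18.75 and rank 127. Its peak, at chr5:74766709-74767617, also covered starts of NSA2, a ribosome biogenesis gene transcribed in the opposite direction, so that the fragments cannot be told apart by gene. GFM2 stood 2.27 times above GFM1 (1.92 to 2.68). MRRF, which is not one of the 10 genes, held 19 fragments (11.4 to 29.7) at rank 6519, and GFM2 stood 24.7 times above it (15.6 to 41.4).

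The release factors also differed from each other. MTRF1 (ENSG00000120662, minus strand) had a peak at chr13:41263134-41263941, ranked 424, with 286 fragments (254 to 321) over 11.9. Its fold enrichment of 22.26 was the highest of the set. Its summit also fell in the 5' UTR, 16 bp into the canonical transcript. MTRF1L (ENSG00000112031, minus strand) had a wider but lower peak at chr6:153002378-153003331, ranked 1967, with 77 fragments (60.8 to 96.2) over 6.42 and a fold enrichment of 10.51. Its summit lay 103 bp upstream of the canonical start. MTRF1 held 3.71 times as many fragments as MTRF1L (2.88 to 4.84). The 5 ratios given for related or partner factors compare single peaks of 1 library, and the pairs were set by role with the values already known.

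HEMK1 methylates the glutamine of the release factors' catalytic motif, and TACO1 is needed for efficient synthesis of COX1. HEMK1 (ENSG00000114735, plus strand) had a peak at chr3:50568949-50569833, ranked 123, with 457 fragments (416 to 501) over 22.0, a fold enrichment of 19.88. The summit lay 42 bp upstream of the nearest start and 86 bp upstream of the canonical one. TACO1 (ENSG00000136463, plus strand) had a peak at chr17:63600461-63601325, ranked 103, with 454 fragments (413 to 498) over 21.1, a fold enrichment of 20.56. Its summit lay 24 bp upstream of the nearest start and 37 bp upstream of the canonical one. Among protein-coding genes, 0.674% had a stronger peak than TACO1 and 0.789% a stronger one than HEMK1.

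In order of summit fragments the genes ran GFM2, MTIF2, HEMK1, TACO1, MTRF1, TUFM, GFM1, MTRF1L, MTIF3 and TSFM. The first 4 did not differ beyond counting error, with neighbour ratios of 1.01, 1.02 and 1.01 whose exact intervals all held 1. The highest summit in the whole ZBTB11 list held 515 fragments, so these 4 stood near the top of the scale. Whether counts level off near that height was not tested, and this limits their likeness and every ratio that uses them. TACO1 stood 1.59 times above MTRF1 (1.37 to 1.85), and MTRF1 and TUFM were again not separated, at 1.10 (0.923 to 1.30). TUFM exceeded GFM1 by 1.26 times (1.05 to 1.52), GFM1 exceeded MTRF1L by 2.69 times (2.06 to 3.54), and MTRF1L exceeded MTIF3 by 1.83 times (1.24 to 2.74). MTIF3 and TSFM could not be separated, at 1.62 (0.968 to 2.74). The order by fold enrichment was different, and the local background ranged from 2.81 (TSFM) to 24.1 (GFM2) fragments. Peaks were called for each antibody on its own, so this background came from the ZBTB11 library and may include fragments of the peak itself. It was mostly higher at genes with more summit fragments, and what this does to the order by fold enrichment was not tested. GFM2, with the most fragments, had the lowest fold enrichment of the 7 genes above 200 fragments, which ranged from 18.75 to 22.26. The other 3 genes, MTRF1L, MTIF3 and TSFM, ranged from 7.08 to 10.91.

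The peaks near TACO1 and HEMK1 in rank illustrate what else was found at this strength. Just above TACO1 stood a peak of 460 fragments near both JRK and PSCA, and just below stood those of TMEM222 with 486 and METTL9 with 432 fragments. Next to HEMK1 were DNAJC25 (with the read-through gene DNAJC25-GNG10) at 449 fragments and NDUFC2 (with the read-through gene NDUFC2-KCTD14) at 440 fragments. NDUFC2 encodes a subunit of respiratory complex I.

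The summits lay close to starts. In 8 of the 10 genes the summit was within 100 bp of an annotated start, against 42.4% of the 11074 protein-coding genes whose strongest peak met the limit on q. That share covers peaks of all ranks, whereas 7 of the 10 genes ranked among the 1000 strongest. A share at like rank was not computed, so closeness to a start is not shown to be particular to these genes. The exceptions were MTRF1L at 103 bp and MTIF3 at 164 bp. Measured to the nearest start in the direction of the gene, 8 summits lay upstream, by 13 bp (GFM1) to 164 bp (MTIF3), and those of TUFM and MTRF1 lay downstream, by 6 bp and 9 bp. The peaks were 539 bp (TSFM) to 954 bp (MTRF1L) wide, with a median of 846.5 bp against 838 bp for all such genes. Moreover, 2 of the peaks also covered starts of another protein-coding gene, SH2B1 for TUFM and NSA2 for GFM2, both on the opposite strand.

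**Figure D2:**
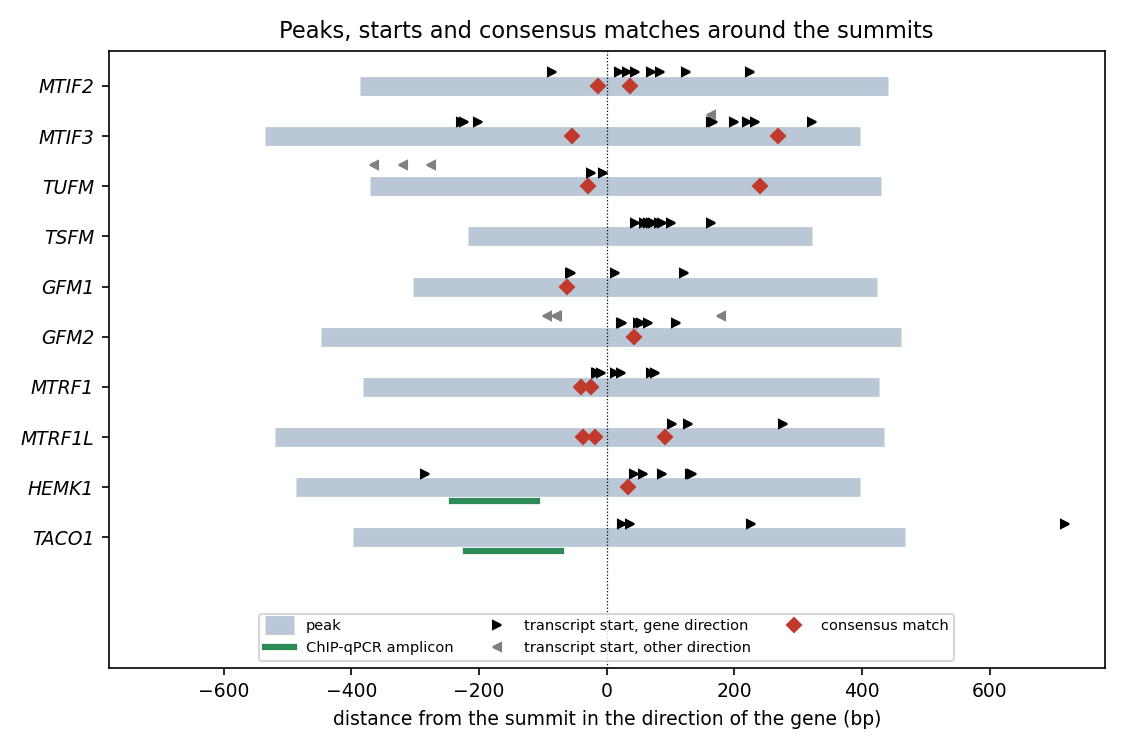
Each row shows the strongest ZBTB11 peak of 1 gene (bar) with distances from its summit in bp, positive in the direction of the gene. Triangles are annotated transcript starts (black in the direction of the gene, grey in the other direction), diamonds are matches to CCGGAAG or CAGGAAG, and green lines are the ChIP-qPCR amplicons of TACO1 and HEMK1. Matches lie within 50 bp of the dotted summit line in 6 rows, the TACO1 and TSFM peaks hold none, and both amplicons lie upstream of the summit but inside the peak.

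The ChIP-qPCR primers of the study were located in hg38, and each primer had 1 exact match on its chromosome. They are shown because they tie the qPCR measurement to a place in each peak, 5′ to 3′ in lower case without marked bases.
TACO1 forward primer: tggacttgctcagatttaggca
TACO1 reverse primer: tgcccttgagcagatctagttag
HEMK1 forward primer: ctggttcctaaacgccagct
HEMK1 reverse primer: tgcatacaggaaagtgcggg
The TACO1 amplicon spanned 149 bp at chr17:63600638-63600786, and the HEMK1 amplicon spanned 134 bp at chr3:50569194-50569327. Both lay wholly inside the ZBTB11 peak of their gene. Neither covered the summit, from which the nearer ends were 72 bp (TACO1) and 109 bp (HEMK1) upstream. Neither amplicon held the consensus.

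The consensus was then compared with other promoter peaks. Of the 11074 protein-coding genes whose strongest peak met the limit on q, 22.5% had it within 50 bp of the summit, against the 6 of 10 genes here (5 of 8 without TACO1 and HEMK1). The share was 11.3% within 25 bp, 34.9% within 100 bp and 58.4% over whole peaks, against 2, 8 and 8 of the 10 genes. The share differed with the rank of the peak, and the genes are also set against peaks of like rank. It was 44.6% (Wilson 95% interval 41.4% to 47.9%) of the 887 promoter peaks ranked 1 to 1000, where 5 of 7 genes described here had it. It was 31.6% (29.9% to 33.3%) of the 2847 peaks ranked 1001 to 5000, where 1 of 3 genes, MTRF1L, had it. Windows 500 bp to either side of these summits held it in 4.74% and 4.36% of cases. The summits of the 6 genes with the consensus held 77 to 469 fragments, and those of the 4 genes without it held 26, 42, 207 and 454, so the ranges overlapped.

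**Figure D3:**
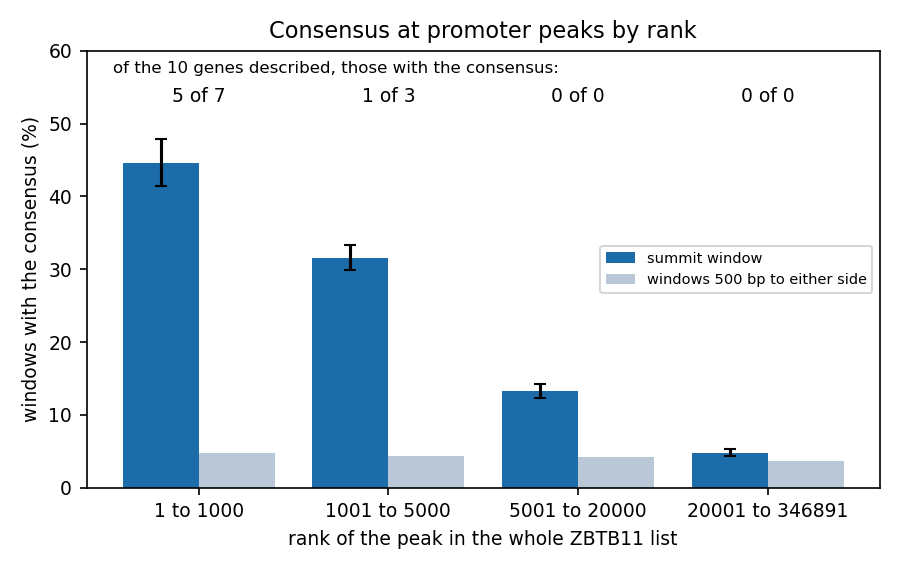
Share of windows of 101 bases holding CCGGAAG or CAGGAAG at summits of promoter peaks of protein-coding genes (dark bars, with Wilson 95% intervals) and 500 bp to either side (light bars), by rank of the peak in the ZBTB11 list. The share falls from 44.6% to 4.79% over the 4 rank classes, and the counts above the bars give how many of the 10 genes in each class had the consensus.

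Within the 6 genes, 9 matches lay within 50 bp of the summits, of which 7 were CCGGAAG and 7 read in the direction of the gene. MTIF2, MTRF1 and MTRF1L had 2 matches each. At promoter peaks within the same limit on q, 11.8% of those with 1 match had a second one. That share covers peaks of all ranks, and a share at like rank was not computed. In MTIF2 the pair lay on either side of the summit and on opposite strands, 14 bp upstream and 37 bp downstream. In MTRF1 both matches read along the gene, and lay 40 bp and 25 bp upstream of the summit. The MTRF1L matches lay 37 bp and 18 bp upstream on opposite strands, and a further CCGGAAG lay 91 bp downstream.

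Several matches lay directly at the start of transcription. Within 20 bp of the canonical start, a limit chosen after the positions were seen, the middle base of a match was found in 6 of the 10 genes, against 11.2% of those 11074 protein-coding genes. Among genes with a strongest peak ranked 1 to 1000 it was found in 301 of 1204 (Wilson 95% interval 22.6% to 27.5%), against 5 of 7 genes here, and among those ranked 1001 to 5000 in 578 of 3568, or 16.2%, against 1 of 3. It lay 5 bp upstream of the start in TUFM and in GFM1, 9 bp upstream in MTRF1, 10 bp upstream in GFM2 and 12 bp upstream in MTRF1L, and 6 bp downstream in MTIF2. GFM1 had no match within 50 bp of its summit, as its match lay 62 bp upstream of it. In HEMK1 the match lay 52 bp upstream of the canonical start. The 150 bases before the start of GFM1, TUFM and MTRF1L show this position, with matches in capitals and the start following the last base. They are taken from the RefSeq promoters of GRCh38.p14, on the strand of the gene.
GFM1, chr3:158644377-158644526: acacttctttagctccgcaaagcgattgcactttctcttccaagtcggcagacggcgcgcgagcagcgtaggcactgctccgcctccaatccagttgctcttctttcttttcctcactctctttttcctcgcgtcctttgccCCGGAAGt
TUFM, chr16:28846349-28846498: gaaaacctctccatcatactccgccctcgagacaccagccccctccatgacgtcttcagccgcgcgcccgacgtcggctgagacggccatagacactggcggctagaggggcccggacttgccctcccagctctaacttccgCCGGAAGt
MTRF1L, chr6:153002710-153002859: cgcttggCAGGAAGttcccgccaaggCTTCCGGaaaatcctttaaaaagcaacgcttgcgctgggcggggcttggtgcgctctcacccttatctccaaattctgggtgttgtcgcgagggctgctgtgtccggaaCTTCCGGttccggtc
All 10 genes were matched in the RefSeq table, 2 of them with 2 promoters, and the consensus was present in 7 of the 12 promoters, each of a different gene. Of all 35116 promoters of this length (250 bases before the start and 50 after), 21.8% held it, and of all 27305 genes in that table, 25.5% had it in a promoter. These shares cover promoters with and without a ZBTB11 peak, and a share for bound promoters of like rank was not computed. The promoter count also overlaps with the matches at summits and starts given above.

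Of the first 4 genes in the order above, TACO1 was the one without a match at the summit, and its whole peak of 865 bp held none. TMEM222 and NDUFC2, next below TACO1 and HEMK1 in rank, also had no match within 50 bp of their summits, whereas the neighbouring peaks of JRK and PSCA, METTL9 and DNAJC25 had one. The same 150 bases before its RefSeq start, at chr17:63600745-63600894, are given for comparison and hold no capitals.
TACO1: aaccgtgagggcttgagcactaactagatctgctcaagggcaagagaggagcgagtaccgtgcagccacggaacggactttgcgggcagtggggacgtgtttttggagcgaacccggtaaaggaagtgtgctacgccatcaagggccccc
The shorter core GGAAG, searched after these windows were seen, was present within 50 bp of the summit in 9 of the 10 genes. GGAAG ends both CCGGAAG and CAGGAAG, so the 6 genes with the consensus had to hold it. Only TACO1, TSFM and GFM1 add to the count, and MTIF3 lacked it. GGAAG was also present at 52.8% of the 9217 promoter peaks that met the limit on q. Those peaks are of all ranks, whereas 7 of the 10 genes ranked among the 1000 strongest. For GGAAG and the words below, shares at like rank were not computed. Among motifs of other promoter factors, the GC box GGGCGG was found in HEMK1, MTRF1L and MTIF3 (3 of 10 genes, against 31.8% of these peaks) and the CCAAT box in GFM1 (1 of 10, against 7.41%). The NRF1 motif, AAGATGG of YY1 and TATAAA of the TATA box were found in 0 of the 10 windows, and in 1.43%, 2.27% and 1.01% of peaks. The longer word CCGGAAGT was found in TUFM and GFM2 (2 of 10 genes, against 6.11% of these peaks). All words were searched on both strands, and a match describes letters only, not which factor binds them.

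Beyond the strongest peaks, 8 further ZBTB11 peaks lay within 3 kb of a start of 4 of the genes. These held 4 or 5 fragments, and 0 of them met the limit on q. The lowest summit in the whole ZBTB11 list held 3 fragments and its median held 5, over a genome-wide background of 1.35 fragments.

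The IgG list could not serve as a control at these genes. Of the autosomes, X and Y, it held peaks on chromosomes 1, 10, 21 and Y only (26712 peaks), with a further 1165 on unplaced sequences and the mitochondrial genome, whereas the 10 genes lie on 8 other chromosomes, on which 0 IgG peaks were listed. On chromosomes 1, 10 and 21, 68.7% of 3011 protein-coding genes had an IgG peak within 3 kb of a start, but only 3.02% had one that met the limit on q.

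To place the 10 genes among their relatives, 20 other genes of mitochondrial translation and 12 cytosolic counterparts were examined in the same way. All 20 mitochondrial genes had a peak and 17 had one that met the limit on q, of which 10 held the consensus within 50 bp of the summit. Their median summit was 25 fragments and 5 of 20 were among the 1000 strongest. The strongest were MTERF4, which targets a ribosomal RNA methyltransferase to the mitochondrial ribosome, with 440 fragments, MRPL58, a ribosome rescue factor, with 422, and the ribosome assembly GTPase MTG1 with 285. The weakest by p-value were ERAL1 with 5, MTRFR with 8 and PTCD3 with 7 fragments. Of the cytosolic genes, all 12 had a peak, 11 had one that met the limit on q, 4 of these held the consensus, and 3 were among the 1000 strongest, with a median of 47.5 fragments. The strongest were EIF5B with 371, EIF2S1 with 220 and ETF1, the cytosolic release factor, with 193 fragments. The EIF5B peak lay 890 bp from its nearest start and covered a start of TXNDC9 instead. The EIF2S1 peak covered starts of both EIF2S1 and ATP6V1D. Its summit lay 424 bp from the nearest start of EIF2S1 and 72 bp from one of ATP6V1D. The weakest by p-value were EEF2 with 8, ABCE1 with 7 and EIF1AX with 8 fragments. The canonical starts were searched only for genes whose strongest peak met the limit on q. The consensus lay within 20 bp of that start in 5 of these 17 mitochondrial and in 0 of these 11 cytosolic genes. With 1 library, these counts describe the lists and were not tested against each other.

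Among these lists, 3 genes lie on chromosomes with IgG peaks. MTG1 (chromosome 10) had 285 ZBTB11 fragments and 0 IgG peaks within 3 kb of a start. NSUN4, an RNA methyltransferase of the mitochondrial ribosome on chromosome 1, had 201 ZBTB11 fragments, and its strongest IgG peak held 7 with a −log10 p of 3.11 against 199 for ZBTB11. N6AMT1, the relative of HEMK1 that methylates the cytosolic release factor, lies on chromosome 21. It held 11 ZBTB11 and 9 IgG fragments, with −log10 p of 6.94 and 5.08, so that these signals were of similar size.

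**Figure D4:**
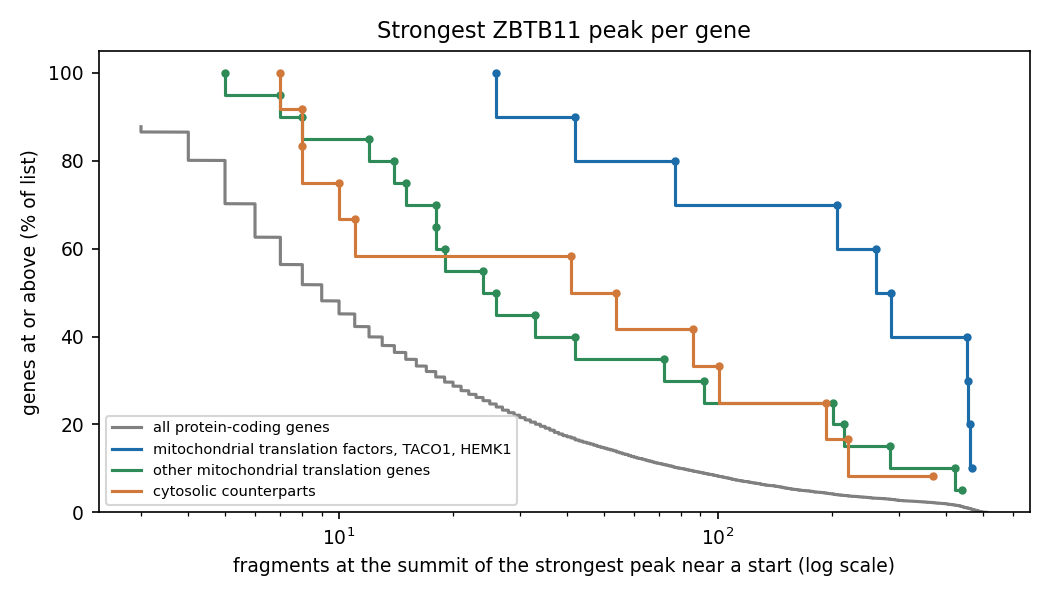
Percentage of genes in each list (vertical axis) whose strongest ZBTB11 peak near a start holds at least the number of summit fragments on the horizontal log axis. The 10 genes (blue) begin at 26 fragments with a median of 273.5, or 234 without TACO1 and HEMK1. The medians are 25 for the other mitochondrial translation genes (green), 47.5 for the cytosolic counterparts (orange) and 9 for all protein-coding genes (grey), of which 87.7% have a peak.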

How the data were processed

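The study fixed NCI-H1299 cells with formaldehyde, sheared and immunoprecipitated the chromatin, and sequenced both ends of the fragments. Per the methods, reads were aligned to hg38 with BWA and peaks were called with MACS for each antibody on its own at a p-value below 0.05. The fold enrichment (a ratio of summit to local background), −log10 p, −log10 q and score of each peak were used as deposited by the authors, except that the score, which repeats the p-value, was set aside. The series holds 1 library per antibody. The deposited layout is that of a later MACS release than the methods name, so the release is not certain.

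All peaks of the autosomes, X and Y were ranked by p-value, then fold enrichment, then position. Fragments at the summit and the local background were solved from fold enrichment and p-value, with a pseudocount of 1 on both and a tolerance of 0.001. The solver, the motif scan and the distance search were tested on simulated data. Depth was read from the genome-wide background, which was 1.35 fragments for ZBTB11 and 1.55 for IgG. Starts came from GENCODE release 44, and motifs were read from hg38. No peak of either list ended past its chromosome's end in this reference. Intervals are at 95%, Poisson for fragments, exact binomial for ratios and Wilson for shares. They cover counting error only, since reads carry no molecular identifiers. No test across replicates was possible.

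The genes, the comparison lists and the alternatives were chosen with earlier results of these data known. All 10 genes were named. Of each comparison list, the 3 strongest, the 3 weakest and those on chromosomes 1, 10 and 21 were named, and for TACO1 and HEMK1 the 2 genes next above and below in rank. MRRF was also named, as the partner of GFM2. The sequence GGAAG, the 20 bp limit at the start and the search over whole peaks were added after the data were seen. Python 3.11.15, SciPy 1.17.1 and pysam 0.24.0 were used.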

Additional observations from a re-analysis of the deposited data

Results flagged for a closer look

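Outside the 3 kb around the starts, 20 ZBTB11 peaks lay in the bodies of 6 of the 10 genes, and 1 of them had a q-value of 0.05 or less. It was flagged because the comparisons did not use these peaks. It held 9 fragments and lay in TSFM at chr12:57800937-57801273, with a fold enrichment of 3.13 and rank 25986. It lay 18214 bp from the nearest start of TSFM and 322 bp from a start of AVIL, a gene on the opposite strand. The IgG peak list holds no peak on that chromosome, and signal tracks of IgG and Input were not analysed here.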

How the results depend on the processing

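There were 16 results and 44 alternatives, of which 1, the search of whole peaks for the consensus, was chosen after seeing the data. Of these values, 43 stayed close to the main one, and 1 moved. With 25 bp on each side of the summit in place of 50 bp, 2 of the 10 genes held the consensus instead of 6, and the cause is the window itself, as most matches lay more than 25 bp from the summit. With 100 bp, and over the whole peak, 8 genes held it. The number of genes with a peak at a q-value of 0.05 or less stayed at 10 under each alternative tried. The strongest peak of each gene was the same by fold enrichment and with starts of protein-coding transcripts only. The planned count of IgG peaks at the 10 genes, and its alternative by overlap, gave no value because none of the genes lies on chromosomes 1, 10 or 21. No replicate could be left out. No paired analysis was possible because there is only 1 library for each antibody. Depth limits the peaks of few fragments most, and the 26 fragments of TSFM carry an interval of 17.0 to 38.1.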
